A study of Mus musculus with 16 samples.

Results

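Rnf144b, Gpnmb, Hacd4, Myof and Ahrr are 5 genes whose array signal was far lower in mouse peritoneal macrophages after lipopolysaccharide (LPS), out of 19512 genes with a symbol on the array. They were picked by name for large falls with LPS in these same arrays, so their LPS differences are described here without a test. RNA from adherent peritoneal cells of male mice of the strain BALB/cByJ-Lpin1fld/J was measured on 16 single-colour arrays, 4 in each of 4 groups. Control mice were heterozygotes. The mutants had fatty liver dystrophy (fld), which is caused by a mutation of Lpin1, the gene that encodes the lipid phosphatase lipin-1. Cells of each genotype were left untreated or received 100 ng/ml LPS for 5 h, both in medium without serum. The labels name 4 mice of each genotype but do not say whether one replicate number marks one mouse, and if arrays of a group share a mouse the p-values measure technical spread.

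LPS is a part of the outer membrane of Gram-negative bacteria that macrophages sense through Toll-like receptor 4, and the response shuts down many genes of the resting macrophage while it switches on inflammatory ones. The 5 genes belong to different systems. Rnf144b encodes a RING-in-between-RING (RBR) ubiquitin ligase, an enzyme that takes ubiquitin onto a cysteine of its own before passing it to a target protein. Gpnmb encodes a transmembrane glycoprotein of melanosomes and lysosomes, made in large amounts by lipid-laden macrophages under control of the MiT/TFE transcription factors. Hacd4 belongs to the 3-hydroxyacyl-CoA dehydratases, which remove water during each cycle of very long chain fatty acid elongation in the endoplasmic reticulum. Myof encodes myoferlin, a ferlin with calcium-binding C2 domains that takes part in membrane fusion and repair. Ahrr encodes the aryl hydrocarbon receptor repressor, which binds the partner protein Arnt in place of the receptor Ahr and is itself a target gene of Ahr.

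The promoter windows of 3 of the genes are shown because they differ in the core letters that the Ahr and Arnt pair is known to bind. Each is the 250 bases before a RefSeq gene start of build GRCm38.p6, printed 5′ to 3′ on the strand of the gene, with every GCGTG in capitals. The Ahrr window is chr13:74292332-74292581 on the minus strand, the Rnf144b window is that of the second of its 2 starts, chr13:47193753-47194002 on the plus strand, and the Gpnmb window is chr6:49036268-49036517 on the plus strand.
Ahrr: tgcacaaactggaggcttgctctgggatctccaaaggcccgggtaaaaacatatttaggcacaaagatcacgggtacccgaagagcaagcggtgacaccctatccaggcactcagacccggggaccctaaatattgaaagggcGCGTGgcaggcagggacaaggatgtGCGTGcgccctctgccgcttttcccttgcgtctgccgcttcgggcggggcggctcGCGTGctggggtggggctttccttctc
Rnf144b: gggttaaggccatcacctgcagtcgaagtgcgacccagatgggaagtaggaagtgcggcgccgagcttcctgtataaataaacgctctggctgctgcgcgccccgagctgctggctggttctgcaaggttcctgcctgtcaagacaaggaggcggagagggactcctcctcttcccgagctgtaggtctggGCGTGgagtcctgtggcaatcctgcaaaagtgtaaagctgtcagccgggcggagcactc
Gpnmb: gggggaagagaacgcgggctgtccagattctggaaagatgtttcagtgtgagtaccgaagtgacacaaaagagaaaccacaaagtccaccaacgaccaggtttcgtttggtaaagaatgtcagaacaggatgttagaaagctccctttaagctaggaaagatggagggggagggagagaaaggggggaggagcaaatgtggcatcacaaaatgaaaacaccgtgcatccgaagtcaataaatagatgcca

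All 5 genes had at least 1 such window, 6 in all. The letters GCGTG, searched on both strands, occurred 3 times before Ahrr, at 107 to 103, 82 to 78 and 27 to 23 bases before the start. They occurred once before the second start of Rnf144b, 59 to 55 bases away, and not in the windows of the other start of Rnf144b, of Gpnmb, of Hacd4 or of Myof. Of all 32851 windows in the table, 28.2% held GCGTG at least once and 2.77% held it at least 3 times. Also searched on both strands were CACGTG (the E-box, in 6.02% of windows), CATGTG (the M-box core, 12.3%), TGANTCA (AP-1, 6.75%), GAGGAAG (PU.1, 10.6%) and a motif of NF-kB (0.356%). None of these 5 occurred in any of the 6 windows. For NF-kB only a single narrow form of the motif was searched. Looser forms, which leave more bases free, were not searched, so the windows are not shown to lack an NF-kB site. The base composition ranged from 42.8% G and C before Myof to 61.2% before the first start of Rnf144b, against a median of 52.4% over all windows. These are matches of letters in short windows, and no binding was measured.

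Levels below are log2 processed intensities minus the 75th percentile of the same array, so 0 is the signal of a fairly bright spot. The share of spots well above background ran from 58.7% to 65.4% over the arrays. The 75th percentile of intensity ran from 189 to 627 and was lowest on LPS fld replicates 4 (189) and 2 (251). Precision is limited by the number of arrays. Each group lay on 1 slide of its own, scanned separately, so for every difference below slide and group cannot be told apart. The cells are a bulk sample, in which fewer cells of a type and less RNA per cell cannot be told apart. Lpin1 itself was read by 4 probes, of which the brightest did not separate the genotypes. The mean of the other 3 lay between -3.53 and -2.86 on the 8 control arrays and between -6.72 and -5.46 on replicates 1 to 3 labelled fld. It lay at -1.62 and -3.03 on the untreated and LPS arrays labelled fld replicate 4. Because these 2 arrays go against their label, the group is called labelled fld. The LPS differences in fld and the genotype differences of Gpnmb and Rnf144b are also given without them. Other genotype differences and the counts of list and marker genes include them unless stated.

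The 10 probes of the 5 genes carry older names in places: Rnf144b stands as Ibrdc2, Hacd4 as Ptplad2 and Myof as Fer1l3. Kept were probes that stood well above background throughout 1 or more of the groups. This left 8 of the 10 probes and all 5 genes. The probes A_52_P628326 of Rnf144b and A_52_P417819 of Gpnmb were not well above background on any of the 16 arrays, so they give no level. Where several probes of a gene were kept, the brightest stands for it, and no probe of the 5 genes was saturated. Probe coordinates come from the scanner files. For their genome build, the sources used here give none, and no exon or UTR annotation of that build was used.

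**Figure D1:**
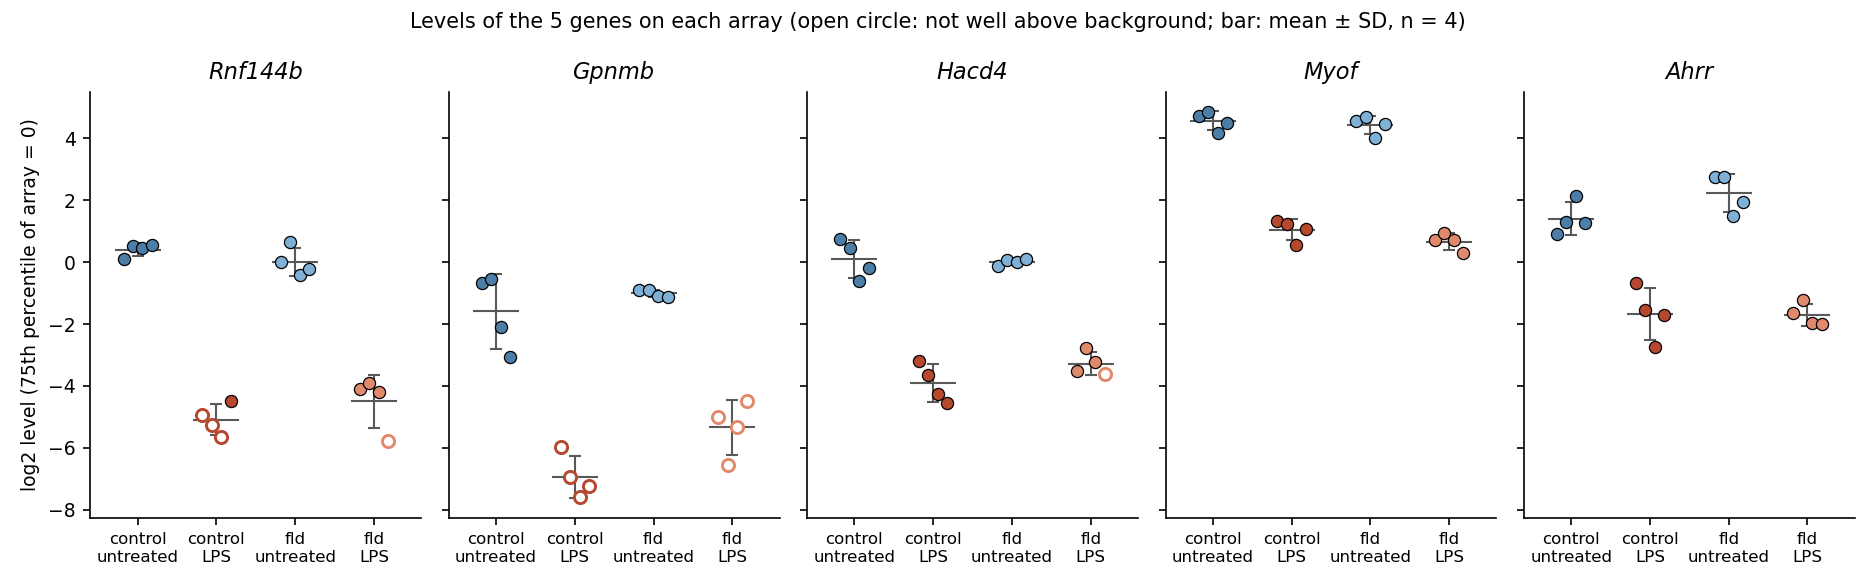
Log2 level of the 5 genes on each of the 16 arrays, with the 75th percentile of the array at 0. Points are arrays in order of replicate number, open points are not well above background, and bars give the mean and SD (n = 4). In every panel all 8 LPS arrays lie below all 8 untreated arrays.

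For each of the 5 genes, every LPS array lay below every untreated array in both genotypes. Over all 17463 features, 30% passed limma's test for LPS in control arrays and 40.1% in arrays labelled fld, in either direction. Of these features 16.4% were lower with LPS without overlap in control arrays, 16.5% in arrays labelled fld and 10.8% in both. Since the genes were chosen for these differences, nothing is read from that count. The 2 genotypes are separate sets of arrays, but both took part in the choice.

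Rnf144b was read by probe A_52_P354752 on chromosome 13 (46728367 to 46728426). In untreated control arrays its log2 level was 0.10, 0.52, 0.45 and 0.54 in replicates 1 to 4, and with LPS it was -4.95, -5.28, -5.64 and -4.49. In arrays labelled fld it was 0.0009, 0.64, -0.41 and -0.21 untreated, and -4.10, -3.91, -4.19 and -5.77 with LPS. The untreated levels therefore sat near the 75th percentile of the array, and the LPS levels near the limit of measurement: with LPS the probe was well above background on 1 of 4 control arrays (replicate 4) and on 3 of 4 arrays labelled fld (not replicate 4). The difference, LPS minus untreated, was -5.49 in control arrays (SE 0.36, 45-fold lower) and -4.50 in arrays labelled fld (SE 0.36, 22.6-fold lower), the lowest fitted value of all 17463 features in both. Both folds rest in part on arrays not well above background. The smallest distance between the lowest untreated and the highest LPS array was 4.59 in control and 3.50 in fld. Without both arrays labelled fld replicate 4 the fld difference was -4.14. The order of the group means was untreated control (0.40 ± 0.20), untreated fld (0.01 ± 0.45), LPS fld (-4.49 ± 0.86) and LPS control (-5.09 ± 0.49; SD, n = 4 each), and the groups of the same treatment overlapped. With LPS the overlap came from fld replicate 4 alone, as fld replicates 1 to 3 lay above every control array.

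The other RBR ubiquitin ligases did not share such differences. Of 13 family members besides Rnf144b, all tested, 2 rose and 3 fell with LPS in control arrays by limma's test, and 1 rose and 4 fell in arrays labelled fld. Among all features 14.8% rose and 15.2% fell in control and 21.9% rose and 18.2% fell in fld. The median change of the family was -0.02 in control and -0.19 in fld, against 0.03 and 0.06 over all features. Rnf144a, the closest relative of Rnf144b, differed by -0.33 (SE 0.41, adjusted p = 0.6) and -0.76 (SE 0.41, adjusted p = 0.15) and did not pass. In control arrays Rnf19b rose by 0.54 and Ankib1 by 0.30, while Rnf217 (-1.34), Cul9 (-0.76) and Arih1 (-0.31) fell. In arrays labelled fld Rnf19b rose by 0.37, and Cul9 (-0.80), Rnf31 (-0.52), Arih1 (-0.45) and Rbck1 (-0.34) fell. Rnf31 and Rbck1 encode subunits of the complex that builds linear ubiquitin chains in signalling downstream of Toll-like receptors. These counts rest partly on single arrays: without control LPS replicate 2 the control falls numbered 1, and without any one of fld untreated replicates 3 and 4 and fld LPS replicates 1, 2 and 4 the fld rise of Rnf19b was not called, leaving 0.

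Gpnmb was read by probe A_51_P438967 on chromosome 6 (49016437 to 49016496). Untreated control arrays gave -0.68, -0.53, -2.09 and -3.07, and LPS control arrays -5.99, -6.95, -7.59 and -7.25. Arrays labelled fld gave -0.91, -0.89, -1.10 and -1.12 untreated, and -5.01, -6.56, -5.32 and -4.48 with LPS. With LPS none of the 8 arrays read the probe well above background, so the difference has only a lower limit. The limit sets the untreated mean against, per LPS array, the probe's own signal or, where that is lower, the dimmest signal that was still well above background there. By this limit the level was at least 10.8-fold lower in control arrays (-1.59 against -5.02). In arrays labelled fld it was at least 10.9-fold lower (-1.003 against -4.45). The limit is nominal, since a signal brighter than the dimmest such one can still be not well above background. Rnf144b on LPS control replicate 1 was such a case, at -4.95 against -5.04. The fitted differences, -5.35 and -4.34 (SE 0.53 each), were the second lowest of all features in both genotypes but lie below what the arrays measured. Without both arrays labelled fld replicate 4 the fitted fld value was -4.66. Untreated control replicates 3 and 4 were lower than replicates 1 and 2, and the SD of that group, 1.21, exceeded that of 99.4% of features. In untreated arrays labelled fld the SD was 0.12, greater than that of 24.6% of features. The order of the means was untreated fld (-1.003 ± 0.12), untreated control (-1.59 ± 1.21), LPS fld (-5.34 ± 0.88) and LPS control (-6.94 ± 0.69; SD, n = 4 each), with overlap between genotypes in both treatments.

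Genes linked to Gpnmb through the MiT/TFE factors and through lipid-laden macrophages moved both ways, with more falls than rises. Of 24 listed genes 21 were tested, and Fabp5, Ctsk and Atp6v0d2 were not kept. In control arrays 2 rose and 8 fell, and in arrays labelled fld 2 rose and 9 fell, with a median change of -0.28 and -0.31. Among all features 14.8% rose and 15.2% fell in control, and 21.9% rose and 18.2% fell in fld. Mitf, which encodes a factor that activates Gpnmb in pigment cells and osteoclasts, fell by 0.81 (SE 0.24, adjusted p = 0.0192) in control and by 1.09 (SE 0.24) in fld. Tfeb fell by 0.55 in control and fell by 0.52 in fld, whereas Tfec differed by 0.16 and -0.41 and did not pass. The largest falls among called genes in control were those of Lipa, the lysosomal acid lipase (-3.11), Trem2, a lipid-sensing receptor (-1.36), and Lgals3, galectin-3 (-1.29). In fld they were those of Lipa (-2.74), Lpl, lipoprotein lipase (-1.62), and Trem2 (-1.43). Sdc4, a heparan sulfate proteoglycan that binds the Gpnmb protein, rose by 2.60 in control and 2.23 in fld. Spp1, which encodes osteopontin, rose by 0.94 in control, and Fnip2 rose by 0.88 in fld. Pmel, the melanosomal paralog of Gpnmb, differed by 0.47 and 0.41 and did not pass. Without fld untreated replicate 2 the fld falls numbered 5, and without it or fld untreated replicate 4 the fld rises numbered 1.

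Hacd4 was read by probe A_51_P463120 on chromosome 4, at 87823492 to 87826717, a span longer than the probe itself. Untreated control arrays gave 0.76, 0.45, -0.61 and -0.19, and LPS control arrays -3.19, -3.65, -4.26 and -4.56. Arrays labelled fld gave -0.13, 0.08, 0.01 and 0.09 untreated, and -3.50, -2.78, -3.23 and -3.61 with LPS. The probe was well above background on all arrays except LPS fld replicate 4. The difference was -4.02 in control (SE 0.31, 16.2-fold lower), rank 5 from the lowest of all features, and -3.29 in fld (SE 0.31, 9.81-fold lower), rank 25. Without both arrays labelled fld replicate 4 the fld value was -3.16. The means stood in the order untreated control (0.10 ± 0.62), untreated fld (0.01 ± 0.10), LPS fld (-3.28 ± 0.37) and LPS control (-3.91 ± 0.61; SD, n = 4 each), again with overlap between genotypes. As for Gpnmb, untreated control replicates 3 and 4 were the lower pair of their group.

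A dimmer probe of Hacd4, A_52_P179035 (87817156 to 87817215), gave -2.19, -2.17, -3.48 and -3.04 in untreated control and -6.35, -7.00, -5.92 and -7.26 in LPS control arrays. None of the LPS control arrays was well above background, and by the same nominal limit the level was at least 4.92-fold lower. In arrays labelled fld it gave -2.70, -2.61, -2.65 and -2.69 untreated and -5.51, -5.82, -6.17 and -2.33 with LPS. LPS fld replicate 4, the only one of the 4 well above background there, lay above the untreated arrays, so on this probe the fld groups overlapped. The brighter probe read the same array at -3.61, the lowest of its group, so the probes disagree on that array.

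The rest of the fatty acid elongation cycle showed small differences. Of 12 listed genes 10 were tested, and Elovl2 and Elovl4 were not kept. By limma's test 2 fell and none rose in either genotype, with 1 rise in control and 0 in fld at an unadjusted p under 0.05. Over all features 15.2% fell and 14.8% rose in control, and 18.2% fell and 21.9% rose in fld, by the adjusted p. Elovl5, the elongase of polyunsaturated fatty acids, fell by 0.80 (SE 0.18, adjusted p = 0.0033) in control and by 1.21 in fld. Tecr, the reductase that closes each cycle, fell by 0.49 in control and by 0.30 in fld. The fld fall of Tecr was not called, leaving 1, without any one of control LPS replicate 2, fld untreated replicates 1, 3 and 4 and fld LPS replicates 1, 3 and 4. Without fld LPS replicate 1 there was 1 rise in control. None of the other dehydratases passed: Hacd1 differed by -0.37 and -0.004, Hacd2 by 0.32 and -0.01, and Hacd3 by -0.28 and -0.19 in control and fld. The median change of the list was -0.14 in control and -0.10 in fld.

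Myof was the gene measured most firmly, with 2 probes well above background on all 16 arrays. Probe A_51_P378589 on chromosome 19 (37600236 to 37600295) gave 4.74, 4.87, 4.17 and 4.49 in untreated control and 1.33, 1.24, 0.56 and 1.07 in LPS control arrays. In arrays labelled fld it gave 4.58, 4.69, 4.002 and 4.48 untreated and 0.71, 0.96, 0.71 and 0.29 with LPS. Replicates lay close together, and the nearest untreated and LPS arrays were 2.84 apart in control and 3.04 in fld. The difference was -3.52 in control (SE 0.21, 11.4-fold lower, rank 11) and -3.77 in fld (SE 0.21, 13.6-fold lower, rank 12). Without both arrays labelled fld replicate 4 the fld value was -3.63. The means stood in the order untreated control (4.57 ± 0.31), untreated fld (4.44 ± 0.30), LPS control (1.05 ± 0.34) and LPS fld (0.67 ± 0.28; SD, n = 4 each), and the genotypes overlapped within both treatments.

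The second probe of Myof, A_51_P478353 (37600003 to 37600062), lies next to the first and gave differences of -3.89 and -4.21 (14.9-fold and 18.5-fold lower). Another probe, A_52_P360440 (37683818 to 37686686), lies farther along the chromosome. It was well above background on all 8 untreated arrays, on 1 of 4 LPS control arrays and on none of the LPS arrays labelled fld. Its fitted difference in control, -3.88, thus rests mostly on arrays not well above background. In fld the level was at least 5.16-fold lower by the nominal limit used for Gpnmb.

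Ferlins and genes of membrane repair did not move as a group. Of 21 listed genes 18 were tested: Fer1l5 was not kept, and no probe carried the name Fer1l6 or Trim72. In control arrays 2 rose and 4 fell, and in arrays labelled fld 4 rose and 6 fell, with a median change of 0.003 and 0.03. The shares over all features were 14.8% up and 15.2% down in control, and 21.9% up and 18.2% down in fld. Cav1, which encodes the coat protein of caveolae, fell by 2.33 (SE 0.26, adjusted p = 1.35e-05) in control and by 2.94 in fld. Ahnak (-1.18 and -0.94), a scaffold protein, and the annexins Anxa4 (-1.10 and -1.43) and Anxa1 (-1.03 and -0.91) fell in both, and S100a10 (-0.72) and Ehd4 (-0.47) fell in fld. Ehd1, a membrane-shaping ATPase (0.96 and 0.64), and Anxa6 (0.81 and 0.83) rose in both. The nearest relative, Dysf (dysferlin), differed by 0.62 (adjusted p = 0.0746) in control and rose by 1.25 in fld. It was dim, well above background on 1 of 4 untreated control arrays and on all arrays of the other groups. Otof, another ferlin, rose by 0.87 in fld. Without fld LPS replicate 4 the control rises numbered 4.

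Ahrr was read by 1 probe, A_51_P254425 on chromosome 13 (71144041 to 71144101), well above background on all 16 arrays. Untreated control arrays gave 0.92, 1.31, 2.15 and 1.26, and LPS control arrays -0.69, -1.54, -2.72 and -1.70. Arrays labelled fld gave 2.74, 2.75, 1.505 and 1.95 untreated, and -1.65, -1.21, -1.97 and -1.999 with LPS. Replicates spread more than for Myof, with control replicate 3 the highest untreated and the lowest LPS array of its genotype. The difference was -3.07 in control (SE 0.39, 8.4-fold lower, rank 25) and -3.94 in fld (SE 0.39, 15.4-fold lower, rank 10). Without both arrays labelled fld replicate 4 the fld value was again -3.94. The order of the means was untreated fld (2.24 ± 0.62), untreated control (1.41 ± 0.52), LPS control (-1.66 ± 0.84) and LPS fld (-1.71 ± 0.37; SD, n = 4 each), with overlap between genotypes in both treatments.

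Of 16 listed genes of the aryl hydrocarbon receptor pathway 13 were tested, while Arnt2, Cyp1a1 and Aldh3a1 were not kept. In control arrays 2 rose and 1 fell, and in arrays labelled fld 1 rose and 2 fell, with a median change of 0.25 and 0.12. Across all features 14.8% rose and 15.2% fell in control, and 21.9% rose and 18.2% fell in fld. Cyp1b1, a cytochrome P450 gene that Ahr activates and Ahrr represses, rose by 2.86 (SE 0.44, adjusted p = 0.000193) in control and by 1.30 (SE 0.44, adjusted p = 0.029) in fld. The 2 rises were not shown to differ (difference -1.56, SE 0.62, adjusted p = 0.439). Ahr itself differed by 0.46 (SE 0.17) in control, with an adjusted p of 0.05 that lay just over the threshold, and by 0.12 in fld. Arnt differed by 0.18 and -0.05, and Tiparp, another direct target of Ahr, by 0.05 and -0.06, and neither passed. Nqo1, a quinone reductase under control of Ahr and Nrf2, fell by 1.42 in control and fell by 1.49 in fld. Ptges3, a cochaperone of the receptor, rose by 0.36 in control, and Nfe2l2, which encodes Nrf2, fell by 0.54 in fld. Without control untreated replicate 3 the control fall was not called, leaving 0. In fld the rises numbered 0 without fld untreated replicate 2 or 4 or fld LPS replicate 2, 2 without fld untreated replicate 1 and 3 without fld untreated replicate 3, and the falls numbered 1 without fld untreated replicate 1 or 2.

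**Figure D2:**
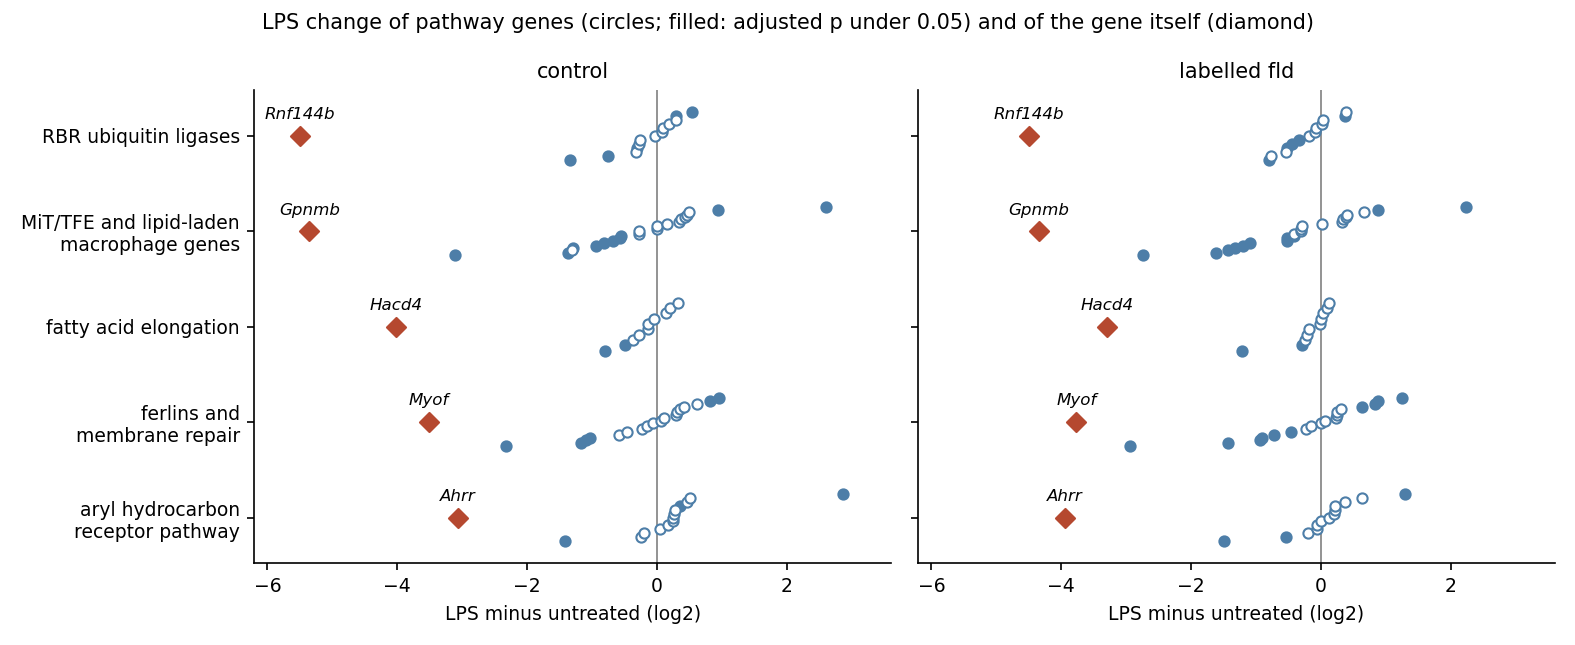
LPS minus untreated (log2) of the tested genes of each pathway list (circles, filled where the adjusted p was under 0.05) and of the gene that heads the list (diamonds), in control and in arrays labelled fld. Every diamond lies left of every circle of its row, closest in fld for Cav1 at -2.94 against Myof at -3.77 and widest in control for Rnf217 at -1.34 against Rnf144b at -5.49.

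In each of the 5 lists the gene of interest lay below all tested list members in both genotypes, which follows from how it was chosen. The lists and genes were put together with earlier results of these arrays known, so their counts describe and do not test a pathway. When arrays were scaled to their median instead, the median change of all features in fld moved from 0.06 to -0.18. The fld rises then numbered 0, 1, 0, 2 and 0 in the 5 lists, in the order given above, against 1, 2, 0, 4 and 1.

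**Figure D3:**
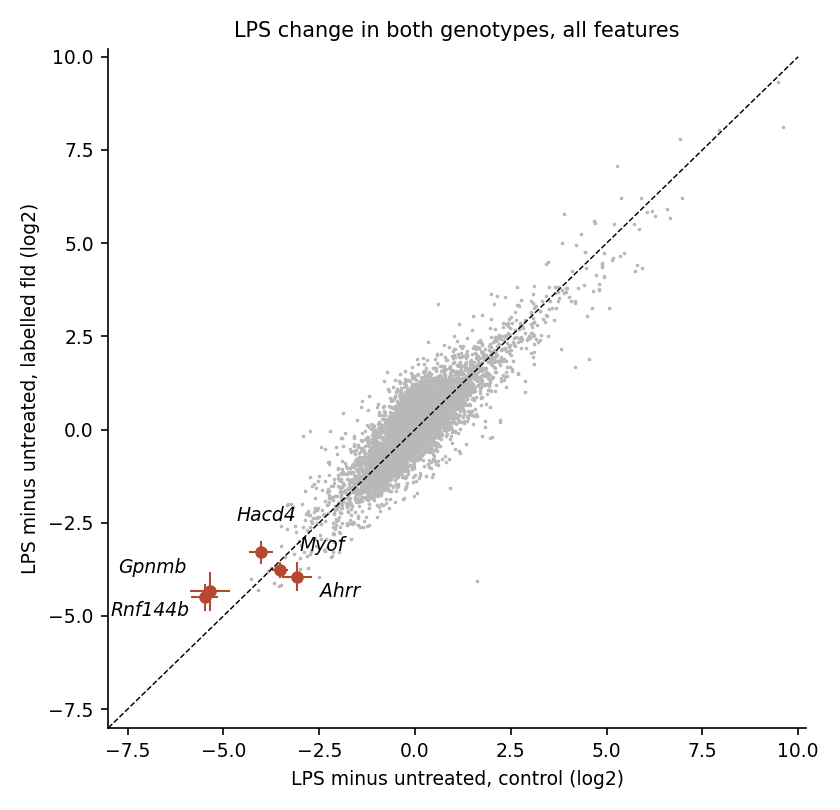
LPS minus untreated (log2) in control arrays (x axis) and in arrays labelled fld (y axis) for all 17463 features (grey) and the 5 genes (red, with SE). The dashed line marks equal change, and the red points lie at the lower left end of the cloud. The Gpnmb point is a fitted value below the limit of measurement.

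The size of the LPS differences of the 5 genes depended on how background was treated. The normexp background starts from the mean signal and local background of each spot, and an offset was added to every signal. With it, and a few spots of extreme local background reset, the difference in control was -2.92 for Rnf144b, -1.76 for Gpnmb and -2.40 for Hacd4. In fld it was -2.11, -1.58 and -1.92. Ahrr in fld was -3.31 against -3.94. All differences stayed below 0 under every setting that was run.

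Among the 12 lowest features of each genotype, those that were not among the 5 included Nfia (-3.75), Adcy4 (-3.65) and Cysltr1 (-3.51) in control arrays, and Cysltr1 (-4.17), Dnah17 (-4.08) and Lrrc4 (-3.96) in arrays labelled fld. On the LPS arrays Nfia was well above background on 3 of 4, Adcy4 on 2 and Cysltr1 on 2 in control, and Cysltr1 and Dnah17 on 0 and Lrrc4 on 1 in fld, so these fitted values and ranks rest in part or wholly on signals near background. Nfia encodes a transcription factor, Adcy4 an adenylate cyclase and Cysltr1 a receptor of cysteinyl leukotrienes.

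The genes whose levels followed each of the 5 most closely were taken by Pearson correlation over the 16 arrays, among 14055 features with a symbol and a value on every array. These correlations describe levels that share the LPS treatment and the scaling of the array. Phka2, a subunit of phosphorylase kinase, was among the 5 closest genes for Rnf144b (r = 0.99), Hacd4 (0.98) and Myof (0.99), and differed by -1.43 in control and -1.29 in fld. The others closest to Rnf144b were Fry, Rab7b, Mettl7a1 and Myo1f, each with r of 0.98, and with differences in control from -3.49 to -2.75. Closest to Gpnmb were Zfp704, Rsph9, Angpt2, Gpsm2 and Ube2e3 (r from 0.95 to 0.97). Angpt2, a ligand of the receptor Tie2, was well above background on 8 of 16 arrays, so its fitted differences are not given.

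Closest to Hacd4 were Selplg (0.98), which encodes a ligand of selectins, Xdh, xanthine dehydrogenase (0.98), and G3bp2 (0.98), with differences in control of -1.64, -2.70 and -0.66. Ube2e3, also among the genes closest to Gpnmb, followed Hacd4 with r of 0.98 and a difference in control of -0.88. Closest to Myof were Atp8a1, a phospholipid flippase (0.99), Selplg (0.98), Pip4p2 (0.98) and Inka1 (0.98). Closest to Ahrr were Sft2d2 (0.98), Cers6, a ceramide synthase (0.98), Inka1 (0.98), Ptpro, a receptor tyrosine phosphatase (0.98), and Tm2d2 (0.97). Ptpro differed by -2.31 in control and -3.15 in fld. A gene can follow the pattern closely with a much smaller change: G3bp2 followed Hacd4 with a change of -0.66 against -4.02.

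Within groups the 5 genes did not vary as one. The correlation of deviations from the group mean over the 16 arrays was 0.68 between Hacd4 and Myof, 0.61 between Rnf144b and Myof, and 0.52 both between Rnf144b and Ahrr and between Myof and Ahrr. It was 0.40 between Gpnmb and Hacd4, and between -0.29 (Rnf144b and Gpnmb) and 0.25 (Gpnmb and Myof) in the other 5 pairs. The deviations share the scaling of each array, and Gpnmb and Rnf144b with LPS were near background, so these values are a description.

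Whether the genes differed between genotypes is the one question the choice by LPS did not settle, because the mean of untreated and LPS arrays in fld minus that in control is orthogonal to both LPS differences in this balanced design. By limma's test with Benjamini-Hochberg adjustment, none of the 5 passed, and 1 (Gpnmb) had an unadjusted p under 0.05. Of all features 19.3% passed, 17.9% higher and 1.38% lower in fld. Gpnmb was higher by 1.096 in fld (SE 0.37, 95% interval 0.30 to 1.89, adjusted p = 0.0534). Untreated control replicates 1 and 2 (-0.68 and -0.53) lay above every untreated fld array (-1.12 to -0.89), and control replicates 3 and 4 (-2.09 and -3.07) lay below. The difference was 0.59 (SE 0.53) in untreated arrays, where the probe was measured. In LPS arrays it was 1.60, but there the probe was not well above background in either genotype. The tested mean and its interval therefore rest in part on signals that were not measured. Probe A_52_P417819 of Gpnmb, never well above background, differed by 0.11 untreated and 0.75 with LPS. Leaving out control untreated replicate 1 or 2, control LPS replicate 1 or fld LPS replicate 2 brought Gpnmb past the threshold (1.25, 1.27, 1.26 and 1.30, adjusted p = 0.0307, 0.0261, 0.0282 and 0.0186). With 1 array left out the design is unbalanced, and the difference is no longer orthogonal to the LPS differences that chose the gene. These 4 values therefore only describe how far single arrays matter. Without both arrays labelled fld replicate 4, which keeps untreated and LPS groups equal within each genotype, Gpnmb differed by 0.97 (adjusted p = 0.132).

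Ahrr differed by 0.39 between genotypes (SE 0.28, interval -0.20 to 0.99, adjusted p = 0.385), with 0.83 in untreated arrays, where all 4 fld arrays lay above the control mean, and -0.04 in LPS arrays. Hacd4 differed by 0.27 (interval -0.20 to 0.74, adjusted p = 0.456) and Rnf144b by 0.10 (interval -0.44 to 0.64, adjusted p = 0.839). With arrays scaled to their median, which shifts all features, these were -0.0185 and -0.19. Relative to the median of all features Hacd4 stood at 0.23 under either scaling and at 0.05 with quantile normalization. Myof differed by -0.26 (SE 0.15, interval -0.57 to 0.06, adjusted p = 0.269), with -0.13 untreated and -0.38 with LPS, and all 4 LPS fld arrays lay below the control mean. With arrays scaled to their median Myof passed (-0.55, adjusted p = 0.0127). That scaling moved the median genotype difference of all features from 0.04 to -0.25, and relative to this median Myof stood at -0.30 under either scaling. None of these intervals shows that the genotypes are alike, and all of them include both arrays labelled fld replicate 4. Fld minus control of the LPS difference, given without a test because it uses the contrasts that chose the genes, was 0.99 for Rnf144b (SE 0.51), 0.72 for Hacd4 (SE 0.44), -0.25 for Myof (SE 0.29) and -0.87 for Ahrr (SE 0.56). For Gpnmb it is not given, since no LPS array was well above background. The Rnf144b value rests in part on such arrays, as 1 of 4 LPS control and 3 of 4 LPS fld arrays were well above background. The dimmest signal still well above background was -5.39 to -4.69 on LPS control and -4.99 to -3.75 on LPS fld arrays. Its part in the Rnf144b value was not tested.

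**Figure D4:**
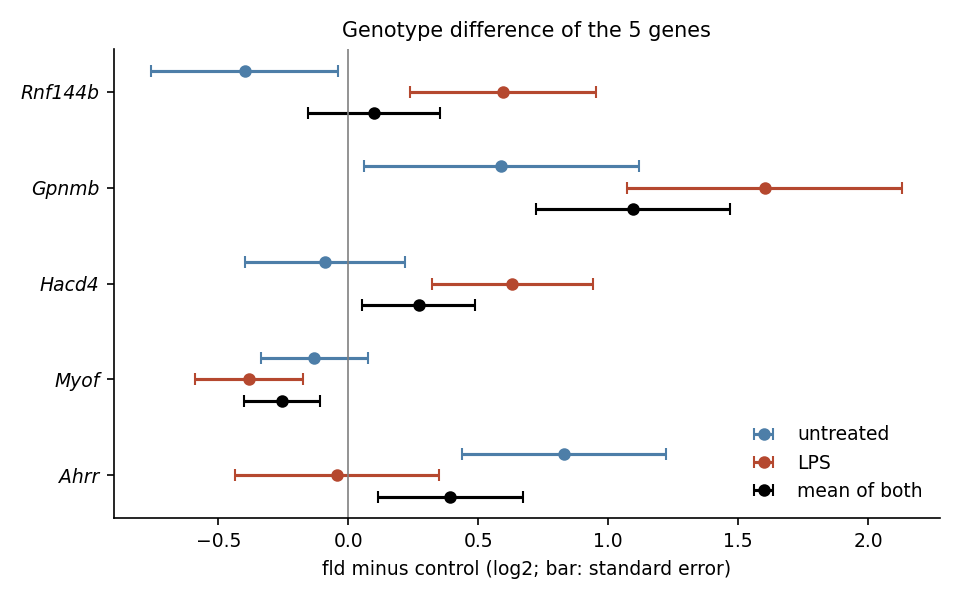
Fld minus control (log2) of the 5 genes in untreated arrays (blue), in LPS arrays (red) and as the mean of both (black), with bars of 1 standard error on each side. Only the black values were tested. Gpnmb has the largest mean difference, 1.096, and its LPS value compares groups that were not well above background.

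Genotype differences across the array went with signal. With features split by mean signal into 4 groups of like size, the dimmest group held Gpnmb. There the median difference was 0.47 and 42.8% of features were called higher in fld. In the next group, which held Rnf144b and Hacd4, these were 0.07 and 22.6%, in the group of Ahrr -0.03 and 4.7%, and in the brightest, that of Myof, 0.004 and 1.69%. The part of this trend in the Gpnmb difference was not tested. The list genes called between genotypes were mostly dim too: among those named, Pmel (0.64), Dysf (1.07), Otof (0.59), Fer1l4 (0.89), Cyp1a2 (1.15), Ido1 (0.60) and Ido2 (0.98) were higher in fld, beside the bright Ehd4 (0.28). None of the 5 lists had a member called lower, and at an unadjusted p under 0.05 there was 1, in the list around Gpnmb. Without fld LPS replicate 1 there was 1 called lower in that list and 1 in the elongation list. With arrays scaled to their median, 6, 2, 6, 4 and 4 members of the 5 lists were called lower, beside 6335 of all 17463 features. Without control untreated replicate 4 the RBR list had 2 members called higher, as had the list around Gpnmb without control LPS replicate 1 or fld LPS replicate 3.

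The cells carried macrophage markers throughout. All 10 of the list were tested and well above background on all 16 arrays. Their summed signal, in multiples of the 75th percentile, ranged from 748 to 915 in untreated control, 594 to 875 in LPS control, 846 to 917 in untreated fld and 735 to 984 in LPS fld arrays. Lyz2, the brightest of the list (group means 9.02 to 9.49), weighs most in that sum and did not pass in either genotype. The median change of the list was -0.74 in control and -1.21 in fld, against 0.03 and 0.06 over all features. In control 1 marker rose (Icam2) and 2 fell (Csf1r, -1.71, and Cd68, -0.96). In fld 5 fell: Csf1r (-2.43), Timd4 (-2.34), Adgre1 (-1.49), Fcgr1 (-1.40) and Cd68 (-1.05). Of all features 15.2% fell in control and 18.2% in fld. B cell markers were also plain, with a sum of 88.3 to 157 and 81.1 to 89.9 in untreated and LPS control and 92.7 to 131 and 61 to 86.9 in fld, and 2 of 9 fell in each genotype. The mast cell sum was 18.4 to 92.7 untreated and 164 to 228 with LPS in control and 43.2 to 141 and 122 to 174 in fld. The median change of its 8 markers was 0.87 in control and 0.55 in fld, and only the rise of Hdc passed. The neutrophil sum went from 1.45 to 2.78 up to 9.01 to 15.9 in control and from 1.47 to 1.94 up to 18.9 to 26.7 in fld, with S100a8 and Camp higher and Mmp8 lower. The other tested gene, S100a9, differed by -1.39 in control and 0.77 in fld and did not pass. S100a8 was by far the brightest of the list with LPS (mean 3.68 in control and 4.43 in fld) and weighs most in the sum. Other lists were low or uneven: T and NK cell 2.59 to 5.33, dendritic cell 4.97 to 10.6 and mesothelial and fibroblast 1.41 to 5.08 over all groups, and erythroid 0.145 to 409. Ncr1, Ltf, Ngp, Cxcr2, Clec9a, Siglech, Upk3b, Wt1 and Pdgfra were not kept. Between genotypes 3 of 9 B cell markers were lower in fld, and 4 of 7 T and NK cell, 2 of 4 dendritic cell and 2 of 9 mesothelial and fibroblast markers were higher, against 1.38% lower and 17.9% higher over all features and 42.8% higher in the dimmest group of features. The part of these shifts in the LPS differences of the 5 genes and in the genotype difference of Gpnmb was not tested.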

How the data were processed

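The deposited scanner files give an intensity for each of 45018 spots, of which 43379 are no controls. Per the file headers they were made with Feature Extraction 9.5.1.1 for design 014868, and the authors' processed intensity had its background subtracted. The deposited value table holds a linear ratio: set against the scanner files, each column was the processed intensity divided by the array's median, so scale and direction are known and genes were not centred (every column median is 1). It served as an alternative.

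Processed intensities were taken to log2 and the 75th percentile of the non-control spots was subtracted. Spots with an outlier flag (0.208% of values) were set to missing and spots of a probe averaged. Kept were probes that stood well above background throughout 1 or more groups (25533 of 41174), the brightest per gene standing for it (17463 features, 14073 with a symbol from a RefSeq table of GRCm38.p6). limma 3.58.1 in R 4.3.3 fitted 1 mean per group over all 16 arrays, with Benjamini-Hochberg adjustment over all features at 0.05. The script was tested on simulated data.

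The members and lists were chosen with earlier results of these data known. Named are all probes of the 5 genes, close relatives and partners of each, up to 3 called list genes per direction with the largest change in each genotype, all called where 5 or fewer, and the 5 closest genes by correlation; other called list genes were named after their values were seen. The single-gene result of 1 list gene is not reported here.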

Additional observations from a re-analysis of the deposited data

Results flagged for a closer look

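In groups of 4 arrays, a single array can stand apart from the other 3. Of 92 groups checked over the probes of the 5 genes and their closest relatives and partners, 8 had an array whose gap to the nearest other exceeded the Dixon 95% limit, where chance flags about 1 in 20. Among the 5 genes, Rnf144b on LPS fld replicate 4 lay at -5.77 against -4.19 to -3.91 on the rest, and without that array the LPS difference in fld was -4.07. The second probe of Myof, A_51_P478353, lay at -0.40 on LPS control replicate 3 against 0.14 to 0.25. Tfec lay at 2.43 on LPS control replicate 1 against 1.89 to 1.95. Pmel lay at -4.14 on untreated fld replicate 3 against -3.77 to -3.73. Hacd2 lay at 1.41 on LPS control replicate 3 against 1.05 to 1.08. Dysf lay at -4.51 on untreated control replicate 1 against -5.32 to -5.20, and at -3.94 on untreated fld replicate 4 against -4.49 to -4.39. Arnt lay at 0.37 on untreated control replicate 3 against -0.16 to -0.12. The causes were not tested.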

How the results depend on the processing

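The LPS difference of each of the 5 genes stayed below 0 under every alternative. Leaving out 1 array gave -5.69 to -5.31 for Rnf144b, -5.84 to -5.00 for Gpnmb, -4.26 to -3.80 for Hacd4, -3.65 to -3.35 for Myof and -3.40 to -2.72 for Ahrr in control, and -4.69 to -4.07, -4.63 to -3.93, -3.46 to -3.18, -3.91 to -3.64 and -4.19 to -3.77 in fld. The normexp background, whose fit failed on a few arrays with extreme local background, gave -2.25 (Rnf144b), -1.03 (Gpnmb), -1.78 (Hacd4) and -2.27 (Ahrr) in control, -1.61, -1.04, -1.45 and -3.04 in fld, -0.044 for the genotype difference of Rnf144b, 508 higher and 621 lower calls in control, 598 and 794 in fld, and 3 and 0 between genotypes. With those spots reset it gave -2.92, -1.76 and -2.40 (Rnf144b, Gpnmb, Hacd4) in control, -2.11, -1.58, -1.92 and -3.31 (with Ahrr) in fld, and 115 lower calls between genotypes. Hacd4 in fld was -3.60 with quantile normalization and -2.80 as the mean of its probes.

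Between genotypes, array median scaling gave -0.19 for Rnf144b, -0.0185 for Hacd4, -0.55 for Myof (adjusted p = 0.0127), 1988 higher calls with LPS in fld (29.6% of calls higher, against 54.6% in the main setting) and 6335 lower calls between genotypes (26.3% higher, against 92.9%). The deposited value table gave -0.19, -0.0185, -0.55, 1985 and 6325. Quantile normalization gave -0.23 for Rnf144b and 839 lower calls (72.2% higher). The share higher with LPS in fld was 65.2% with no filter on dim probes and 66.7% with the reset normexp background. Leaving out 1 array gave -0.0069 to 0.31 for Rnf144b (below 0 without fld untreated replicate 2), 0.85 to 1.30 for Gpnmb (adjusted p from 0.0186 to 0.114), 0.15 to 0.39 for Hacd4, -0.34 to -0.18 for Myof and 0.22 to 0.56 for Ahrr. With 1 array out these differences are not orthogonal to the LPS differences, so they are a description. Without both arrays labelled fld replicate 4, Rnf144b differed by 0.35 (adjusted p = 0.256). The lower calls between genotypes ranged from 132 (without fld untreated replicate 1) to 330, with 150 without control LPS replicate 3. A random block for arrays of one genotype and replicate number, chosen after seeing the data, gave 158 lower calls and an adjusted p of 0.069 for Gpnmb.

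Deviations of same-numbered arrays correlated at 0.16, 0.09, 0.26 and 0.08 in control and -0.08, -0.09, -0.10 and 0.20 in fld (replicates 1 to 4). Not every pair exceeded 0.1, so the numbers were not taken to pair the arrays, although control replicates 2, 3 and 4 and fld replicate 4 correlated best with their own number. The replicate block changed no call of the 5 genes (Gpnmb 1.096, adjusted p = 0.0559, Myof -0.26, adjusted p = 0.088) and gave 2698 higher and 2678 lower calls in control, 4110 and 3225 in fld, and 3218 and 244 between genotypes. With LPS, Gpnmb stood well above background on none of the arrays and Rnf144b on 1 of 4 control and 3 of 4 fld arrays, which limits the size of their LPS differences. The causes of these shifts were not tested.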
